A study of Homo sapiens with 4 samples.

Results

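RNA sequencing values of 9 genes for Piezo, transient receptor potential (TRP) and polycystin channels were examined in human cell lines placed in a magnetic field. The genes, PIEZO1, PIEZO2, TRPC1, TRPM4, TRPM7, TRPV1, TRPV2, PKD1 and PKD2, were taken by symbol from a table of 26348 genes, and all 9 were found. They belong to families linked to the sensing of mechanical and physical stimuli, and were chosen with earlier results of these data known. The groups were A549 exposed and A549 control, and 293T exposed and 293T control, with 3 libraries each. Exposed cells spent 2 h in a magnetic field, and control cells had no field. A549 was established from a lung carcinoma of the non-small cell type, and 293T is labelled as a renal epithelial line and descends from embryonic kidney cells that carry adenoviral genes and the SV40 large T antigen. Each condition is thus represented by established cell lines only. The sources used here give neither field strength nor frequency nor culture temperature. They also do not say whether the 3 libraries per group are separate cultures, so each p-value reflects library-to-library spread that may be technical.

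Piezo channels are trimeric pores of the plasma membrane that open when the membrane is stretched, and they let calcium and other cations into the cell. TRP channels are a large family of tetrameric cation channels gated by heat, ligands, lipids, calcium or magnesium. TRPV1 is the capsaicin and heat receptor, TRPM4 is opened by intracellular calcium but passes mainly sodium, and TRPM7 joins a magnesium-permeable pore to a kinase domain. TRPC1 assembles with other TRPC subunits, and TRPV2 is a calcium-permeable relative of TRPV1. PKD2 (polycystin-2) is a TRP-like channel of the primary cilium and endoplasmic reticulum, and PKD1 (polycystin-1) is a large membrane protein that assembles with it. Loss of either polycystin gene causes autosomal dominant polycystic kidney disease.

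On the GRCh38.p14 assembly, RefSeq places PIEZO1 on chromosome 16 (88715338 to 88785220) and PKD1 on the same chromosome (2088708 to 2135898). PKD2 lies on chromosome 4 (88007635 to 88077777), TRPM7 on chromosome 15 (50557158 to 50686797) and TRPC1 on chromosome 3 (142724034 to 142807888). TRPM4 lies on chromosome 19 (49157792 to 49211836), PIEZO2 on chromosome 18 (10670247 to 11149569), and TRPV1 (3565446 to 3609411) and TRPV2 (16415571 to 16437003) on chromosome 17. Their exonic lengths were not read from RefSeq but calculated from the deposited FPKM and the whole counts recovered from them. These lengths assume that the recovered library totals were the ones used for scaling. They ran from 3363 nt for TRPV2 to 15255 nt for PKD1. Of the 9, 8 were longer than the median of 3950 nt over the genes tested. In the gene ontology terms of the deposited table, 6 of the 9 carried calcium channel activity, and PIEZO1 and PIEZO2 carried mechanosensitive channel activity. The polycystins PKD1 and PKD2 carried a cilium term.

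Some of the genes share part of their span, introns included, with another gene. PIEZO1 overlaps CTU2 by 59 bases, the long noncoding gene HSALR1 by 10246 bases and the antisense gene PIEZO1-AS1 by 2982 bases. HSALR1 had at most 37 counts in any library and PIEZO1-AS1 at most 9. TRPV1 overlaps SHPK by 1172 bases, and PKD1 overlaps TSC2 by 784 bases and the antisense gene PKD1-AS1 by 3582 bases. Other microRNA, small RNA, predicted and pseudogene entries lie within PIEZO1, PIEZO2, TRPC1, TRPM7 and PKD1, with no value analysed here. Strand use during counting is not stated in these sources, and reads in shared bases then cannot be told apart, for these or any other gene named. PKD1 also has near-identical pseudogene copies on chromosome 16, not analysed here, and its values are uncertain to the extent that reads were exchanged with them.

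Promoter sequences from RefSeq (GRCh38.p14) were found for 8 of the 9 genes, with 10 annotated starts. The 250 bases before the start are shown for PIEZO1, PKD1 and PKD2, the genes with the most abundant or most altered transcripts, and for TRPM7, whose transcript did not pass the test in either line. Each is read 5′ to 3′ on the strand of its gene, and capitals mark GC boxes, TATA boxes and E-boxes, whose letters are given below them and were searched on both strands. The windows are chr16:88785221-88785470 (minus strand) for PIEZO1, chr16:2135899-2136148 (minus strand) for PKD1, chr4:88007385-88007634 (plus strand) for PKD2 and chr15:50686798-50687047 (minus strand) for TRPM7.
PIEZO1: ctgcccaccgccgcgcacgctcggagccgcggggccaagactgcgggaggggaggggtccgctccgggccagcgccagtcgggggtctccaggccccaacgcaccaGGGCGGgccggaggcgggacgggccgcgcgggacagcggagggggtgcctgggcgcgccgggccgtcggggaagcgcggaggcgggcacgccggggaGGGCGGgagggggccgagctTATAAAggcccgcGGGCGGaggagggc
PKD1: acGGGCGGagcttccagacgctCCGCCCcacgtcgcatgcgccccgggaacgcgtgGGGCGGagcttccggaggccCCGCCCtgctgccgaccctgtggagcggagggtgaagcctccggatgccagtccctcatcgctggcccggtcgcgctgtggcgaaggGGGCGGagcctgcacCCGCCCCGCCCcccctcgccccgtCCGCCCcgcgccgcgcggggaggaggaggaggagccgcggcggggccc
PKD2: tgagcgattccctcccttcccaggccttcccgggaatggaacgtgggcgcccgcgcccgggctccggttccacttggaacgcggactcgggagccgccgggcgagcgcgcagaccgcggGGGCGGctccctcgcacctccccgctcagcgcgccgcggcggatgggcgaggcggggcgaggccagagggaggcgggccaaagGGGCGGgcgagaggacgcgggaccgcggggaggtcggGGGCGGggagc
TRPM7: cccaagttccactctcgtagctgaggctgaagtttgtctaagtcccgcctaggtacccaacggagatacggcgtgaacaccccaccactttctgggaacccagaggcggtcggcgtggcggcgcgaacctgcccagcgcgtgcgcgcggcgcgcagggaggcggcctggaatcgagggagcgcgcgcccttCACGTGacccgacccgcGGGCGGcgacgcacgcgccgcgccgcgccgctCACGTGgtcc
The PIEZO1 window held 3 GC boxes and a TATA box, the PKD1 window 8 GC boxes, the PKD2 window 3 GC boxes, and the TRPM7 window 1 GC box and 2 E-boxes. GC content was 81.2% for PIEZO1, 79.2% for PKD1, 78.4% for PKD2 and 70.8% for TRPM7. The windows not shown had 76.8% for PIEZO2, 69.2% for TRPM4, 61.2% and 41.2% for TRPC1, and 58.4% and 56.8% for TRPV1. The median over all promoter windows of this length was 58%. The GC box, GGGCGG on either strand, was present in 7 of the 10 windows of the channel genes and in 42.6% of all 34788 windows. The TATA box, TATAAA on either strand, was present in 1 of the 10 and in 10.8% of all windows. The E-box, CACGTG, was present in 1 of the 10 and in 6.31% of all windows. None of the 10 held the 2-unit heat shock element GAANNTTC or TTCNNGAA, which 11.6% of all windows held, or the cyclic AMP response element TGACGTCA, which 1.64% held. The CCAAT box (CCAAT or ATTGG) occurred in 2 of the 10, on the windows of PIEZO2 and the second start of TRPC1, and in 32.0% of all windows. These matches describe letters in the window and are not evidence of binding.

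Values are FPKM, fragments scaled to transcript length and to library total, which can be compared between genes. Whole counts recovered from them gave 37171616 to 38883963 counts per library. On the first principal component of each line, exposed replicate 3 lay nearer to the controls than the other exposed libraries. Scores in A549 were 15.7, 18.2 and 9.91 for exposed replicates 1 to 3 and -14.9 to -14.0 for controls. Scores in 293T were 16.1, 14.7 and 6.51 for exposed replicates 1 to 3 and -13.3 to -11.7 for controls. Markers chosen for A549 summed to 8718 to 8823 FPKM in exposed and 8280 to 8359 FPKM in control A549 libraries, and to 89.8 to 98.1 and 87.5 to 90.0 FPKM in exposed and control 293T libraries. Markers chosen for 293T summed to 77.0 to 82.9 FPKM in exposed and 83.2 to 86.8 FPKM in control 293T libraries, and to 5.42 to 6.27 and 7.65 to 7.84 FPKM in exposed and control A549 libraries. Defining markers of the tissues of origin were nearly absent. The lung markers in the table, 4 of 6 listed, summed to at most 1.33 FPKM in A549, with SCGB1A1 at 0 in all 6 libraries. The kidney markers, 5 of 7 listed, summed to at most 0.375 FPKM in 293T. Each of these lists was higher in the other line. The lung markers summed to 1.63 to 1.74 FPKM in exposed and 1.37 to 1.58 FPKM in control 293T libraries. The kidney markers summed to 1.43 to 1.91 FPKM in exposed and 2.20 to 2.46 FPKM in control A549 libraries. What part these marker levels have in the results below was not tested.

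After 2 h in the field, transcripts of most of these channels were lower in A549 cells, and those of PIEZO1 and PKD1 were lower in 293T cells. Of the 7 channel genes expressed highly enough to be tested, 6 fell in A549 (PIEZO1, PKD1, TRPC1, PKD2, TRPV1 and TRPM4) and none rose. In 293T, 2 fell (PIEZO1 and PKD1) and none rose. The 7 genes tested were above 0.5 FPKM in each of the 12 libraries, so none entered the test through 1 group alone. The test was limma on log2(FPKM + 1) with adjustment over all 13811 genes tested and a threshold of 0.05. By the same rule, 26.9% of all genes tested fell and 13.3% rose in A549, and 24.2% fell and 13.7% rose in 293T. The median log2 fold change of the 7 channel genes was -0.26 in A549, where that of all genes was -0.04, and -0.07 in 293T, where that of all genes was -0.03. In a bulk library, a lower level in every cell and a loss in some of the cells cannot be told apart.

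These shares of all genes depend on scaling. In A549, 33.1% of all calls were rises, against 46.3% after quantile normalization and 51.6% after centring each library on its median. In 293T, 36.2% were rises, against 47.8% after quantile normalization and 45.5% after centring. With the library sum set without mitochondrial genes the share moved the other way, to 24.2% in A549 and 29.4% in 293T. The count of channel genes that fell in A549 was 4 under quantile normalization and under centring, the genes lost being TRPV1 and TRPM4, and in 293T it was 1, the gene lost being PKD1. Among all 13811 genes tested, 2786 fell in A549 and 2620 in 293T under quantile normalization, and 2525 and 2720 under centring. In the main fit these counts were 3711 and 3346. Without exposed replicate 3 of the same line, 6 channel genes fell in A549 and 2 fell in 293T, where PKD2 took the place of PKD1. Of all genes tested, 3612 and 3518 then fell. Without the mitochondrial genes in the sum, 6 channel genes fell in A549 and 2 in 293T, beside 4474 and 3781 of all genes tested.

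**Figure D1:**
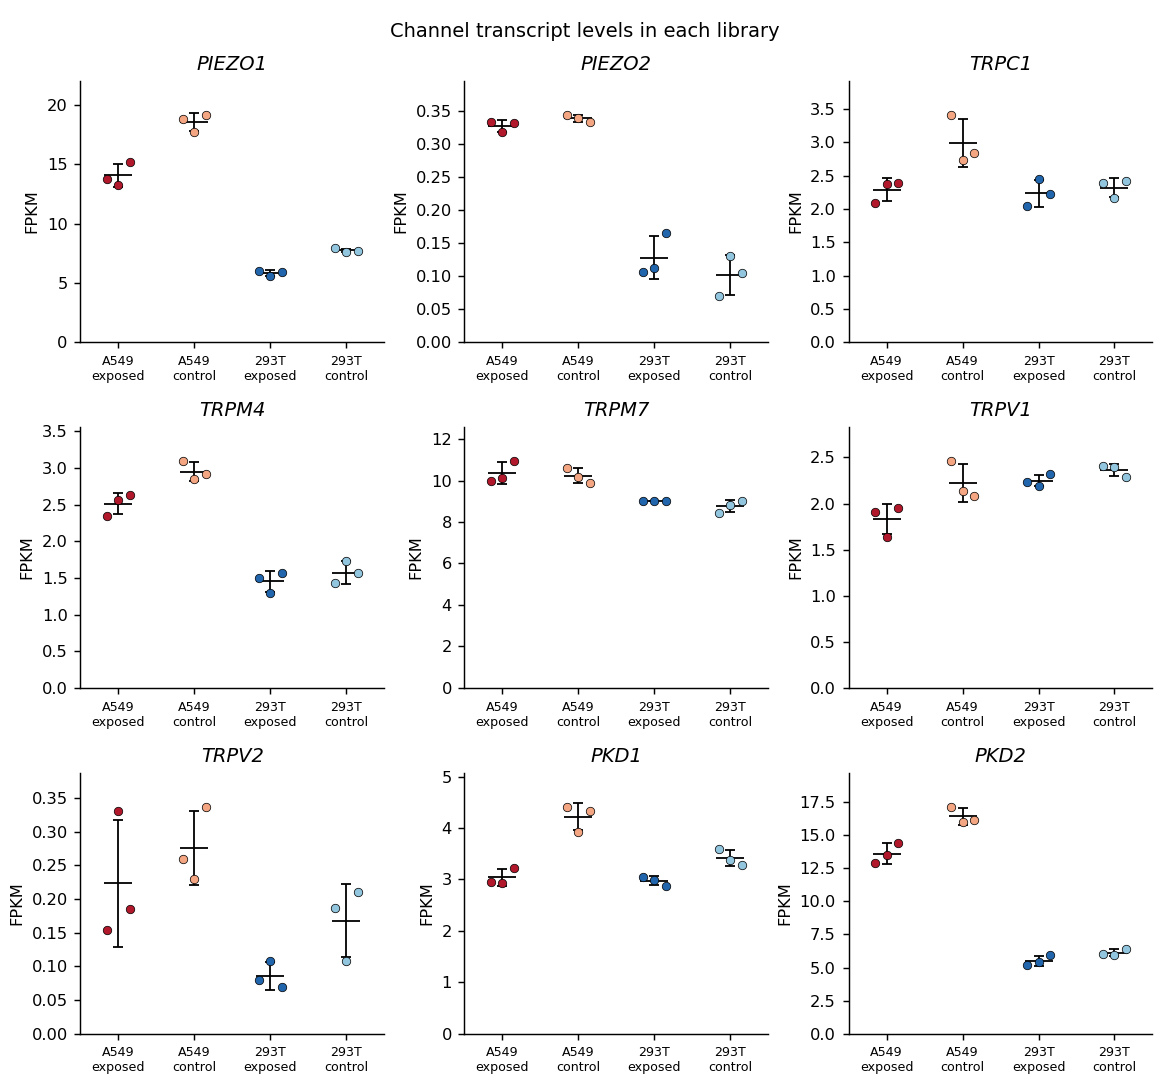
FPKM of each channel gene (vertical axes, each starting at 0) in the 12 libraries, by group; points are libraries, the long bar is the mean and the whiskers are 1 SD (n = 3). PIEZO1 was at 13.3 to 15.1 FPKM in exposed and 17.7 to 19.1 FPKM in control A549 libraries, while TRPM7 overlapped between exposed and control libraries in both lines.

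Among the Piezo genes, PIEZO1, the stretch-gated channel of many non-neuronal cells, was the most abundant of the 9 transcripts in A549. Its level was 13.8, 13.3 and 15.1 FPKM in the exposed A549 libraries, against 18.8, 17.7 and 19.1 FPKM in the control libraries. Every exposed library lay below every control library. The mean fell by 24.2%, a log2 fold change of -0.38 ± 0.05 (SE) and an adjusted p of 1.12e-04. The 293T libraries held 5.99, 5.56 and 5.91 FPKM of PIEZO1 after exposure, against 7.91, 7.61 and 7.67 FPKM without the field, again with no overlap. There the mean fell by 24.7%, a log2 fold change of -0.36 ± 0.05 (SE) and an adjusted p of 2.66e-04. Among all genes tested, 5.87% had a lower log2 fold change in A549 and 4.89% in 293T. The fall of PIEZO1 was past the threshold in both lines under each of the 11 other settings and with each of the 12 libraries left out. CTU2, a tRNA thiolation gene with which PIEZO1 shares 59 bases, had log2 fold changes of -0.18 in A549 (adjusted p = 0.00725) and -0.16 in 293T (adjusted p = 0.0144).

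PIEZO2, the touch channel of sensory neurons, was expressed at a low level. It had 0.332, 0.317 and 0.332 FPKM in exposed and 0.343, 0.339 and 0.332 FPKM in control A549 libraries. In 293T it had 0.106, 0.111 and 0.165 FPKM in exposed libraries and 0.0693, 0.130 and 0.105 FPKM in controls. The groups overlapped in both lines. These values rest on 131 to 140 counts in exposed and 141 to 146 counts in control A549 libraries, and on 43 to 70 and 29 to 55 counts in exposed and control 293T libraries. PIEZO2 did not reach the expression filter, and a fit of all genes without the filter gave adjusted p = 0.922 in A549 and 0.410 in 293T. PIEZO1 exceeded PIEZO2 by 43.0 ± 2.31 times in exposed and 54.9 ± 2.71 times in control A549 libraries, and by 47.4 ± 10.6 times in exposed and 81.9 ± 28.9 times in control 293T libraries (ratio of FPKM, SD, n = 3 each).

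Both polycystin transcripts fell in A549. PKD1, the large partner protein, was at 2.95, 2.93 and 3.23 FPKM in the exposed A549 libraries, against 4.42, 3.93 and 4.33 FPKM in the controls. The groups did not overlap, and the mean fell by 28.0%, the largest percent fall of the 7 channel genes tested in A549, with a log2 fold change of -0.37 ± 0.05 (SE) and an adjusted p of 1.54e-04. In 293T, PKD1 was at 3.05, 2.99 and 2.88 FPKM in exposed libraries, against 3.60, 3.38 and 3.28 FPKM in controls. These groups did not overlap either, and the mean fell by 12.9%, with a log2 fold change of -0.15 ± 0.05 (SE) and an adjusted p of 0.0341. The 293T call was lost with no filter (adjusted p = 0.0573), and without 293T exposed replicate 1 (0.0534), 2 (0.0747) or 3 (0.0849), or without 293T control replicate 1 (0.128) or 2 (0.0689). TSC2, a tumour suppressor that restrains mTOR signalling and shares 784 bases with PKD1, had a log2 fold change of -0.23 in A549 (adjusted p = 3.10e-04) and of -0.14 in 293T (adjusted p = 0.00769). PKD1-AS1, which shares 3582 bases, was at 1.21 ± 0.162 FPKM in exposed and 1.65 ± 0.373 FPKM in control 293T libraries (SD, n = 3 each), from 25 to 31 and 30 to 47 counts. These libraries overlapped (log2 fold change -0.25, adjusted p = 0.0772 by limma), and in A549 no library had more than 6 counts.

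PKD2, the channel-forming polycystin, was the second most abundant of the 9 transcripts in A549. It was at 12.9, 13.5 and 14.4 FPKM in exposed A549 libraries, against 17.1, 16.0 and 16.1 FPKM in controls. All exposed libraries were below all controls, and the mean fell by 17.2%, with a log2 fold change of -0.26 ± 0.05 (SE) and an adjusted p of 0.00250. The 293T libraries held 5.21, 5.42 and 5.92 FPKM after exposure and 6.02, 5.91 and 6.43 FPKM without the field. Exposed replicate 3 overlapped the controls by a narrow margin, and the log2 fold change of -0.13 ± 0.05 (SE) did not pass the test (adjusted p = 0.0781, and 0.0255 without that library). Expressed as a ratio, PKD2 over PKD1 was 4.47 ± 0.126 in exposed and 3.89 ± 0.173 in control A549 libraries (SD, n = 3 each), and 1.86 ± 0.179 and 1.80 ± 0.149 in exposed and control 293T libraries.

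The TRP channel genes TRPC1, TRPV1 and TRPM4, at 1.29 to 3.41 FPKM, fell in A549 and did not pass the test in 293T. TRPC1, a subunit of receptor-operated cation channels, was at 2.09, 2.38 and 2.40 FPKM in exposed A549 libraries, against 3.41, 2.74 and 2.83 FPKM in controls. The groups were separate, control replicate 1 stood highest, and the mean fell by 23.6%, with a log2 fold change of -0.28 ± 0.07 (SE) and an adjusted p of 0.00833. The 293T libraries overlapped, with 2.04, 2.45 and 2.22 FPKM after exposure and 2.39, 2.16 and 2.42 FPKM without the field. That log2 fold change was -0.04 (adjusted p = 0.727), with a sign that turned under quantile normalization (0.0078).

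TRPV1, the capsaicin receptor, was at 1.90, 1.64 and 1.95 FPKM in exposed A549 libraries, against 2.46, 2.14 and 2.08 FPKM in controls. The fall of 17.6% had no overlap between groups and a log2 fold change of -0.19 ± 0.06 (SE) and an adjusted p of 0.0194. The call was lost without A549 exposed replicate 2 (adjusted p = 0.0841), without A549 control replicate 1 (0.0800) and with A549 fitted alone (0.0786). In 293T, TRPV1 was at 2.24, 2.19 and 2.32 FPKM in exposed libraries and 2.40, 2.40 and 2.29 FPKM in controls, which overlapped (log2 fold change -0.05, adjusted p = 0.533). SHPK, the sedoheptulose kinase gene that shares 1172 bases with TRPV1, had a log2 fold change of -0.27 in A549 (adjusted p = 0.00918) and of -0.18 in 293T (adjusted p = 0.0567).

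TRPM4, the calcium-activated sodium-conducting channel, was at 2.35, 2.56 and 2.63 FPKM in exposed A549 libraries, against 3.09, 2.84 and 2.91 FPKM in controls. The groups did not overlap, and the mean fell by 14.8%, with a log2 fold change of -0.17 ± 0.06 (SE) and an adjusted p of 0.0378. This was the highest adjusted p of the 6 calls in A549. The call was lost without A549 exposed replicate 1 (adjusted p = 0.139) or 2 (0.0638), without A549 control replicate 1 (0.117) or 3 (0.0736), and without 293T control replicate 3 (0.0506), which enters through the shared spread. It was also lost with a pseudocount of 0.1 (0.0712), no filter (0.0872) and rescaling to TPM (0.0701). In 293T, TRPM4 was at 1.50, 1.29 and 1.57 FPKM in exposed libraries and 1.43, 1.73 and 1.57 FPKM in controls, with overlap (log2 fold change -0.07, adjusted p = 0.396).

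TRPM7, the magnesium-permeable channel kinase, did not pass the test in either line. Its level was 9.98, 10.1 and 10.9 FPKM in exposed and 10.6, 10.2 and 9.89 FPKM in control A549 libraries. In 293T it was 9.02, 9.02 and 9.01 FPKM in exposed libraries and 8.46, 8.84 and 9.03 FPKM in controls. The groups overlapped in both lines. The log2 fold change was 0.02 in A549 (95% interval -0.08 to 0.11, adjusted p = 0.832), with a sign that turned when the mitochondrially encoded genes were left out of the sum (-0.021), and 0.04 in 293T (95% interval -0.06 to 0.13, adjusted p = 0.555). Set against TRPM7 within each library, PIEZO1 stood at a ratio of 1.36 ± 0.0413 in exposed and 1.82 ± 0.106 in control A549 libraries, and of 0.645 ± 0.0252 in exposed and 0.882 ± 0.0465 in control 293T libraries (SD, n = 3 each).

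TRPV2 was the other transcript below the filter. It had 0.154, 0.331 and 0.185 FPKM in exposed and 0.260, 0.230 and 0.337 FPKM in control A549 libraries, from 20 to 42 and 30 to 44 counts. In 293T it had 0.0800, 0.108 and 0.0690 FPKM in exposed and 0.187, 0.108 and 0.210 FPKM in control libraries, from 9 to 14 and 14 to 27 counts. Groups overlapped in both lines, and without the filter the adjusted p was 0.580 in A549 and 0.239 in 293T. Summed over all 9 genes, the channel transcripts came to 48.2 ± 2.61 FPKM in exposed and 58.2 ± 2.22 FPKM in control A549 libraries, and to 29.5 ± 0.507 and 32.6 ± 0.383 FPKM in exposed and control 293T libraries (SD, n = 3 each). PIEZO1, PKD2 and TRPM7 made up 78.8% of this sum in exposed and 77.7% in control A549 libraries, and 69.0% and 69.5% in exposed and control 293T libraries.

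**Figure D2:**
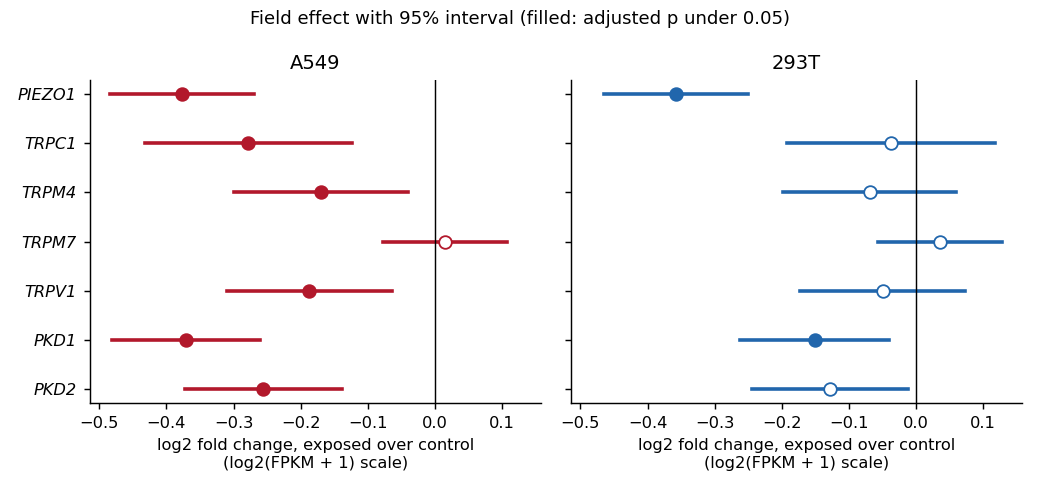
Log2 fold change, exposed over control, on the log2(FPKM + 1) scale (horizontal axes) for the 7 channel genes tested in A549 and 293T; bars are 95% intervals and filled points have an adjusted p under 0.05. PIEZO1 sits at -0.38 in A549 and -0.36 in 293T, and the intervals of TRPM7 span 0 in both panels.

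Libraries that did not overlap in the lower direction were found for 6 of the 7 genes in A549, where 32.6% of all genes tested had such libraries, and for 2 of the 7 in 293T, where 30.8% had them. The plot of all log2 fold changes places PIEZO1 and PKD1 of A549, and PIEZO1 of 293T, in the lower tail. In A549, 6.16% of genes tested had a lower log2 fold change than PKD1, 11.7% than TRPC1 and 13.6% than PKD2. The other genes lay inside the bulk of the distribution, with 21.5% of genes below TRPV1 and 24.1% below TRPM4 in A549, and 24.5% below PKD1 and 28.4% below PKD2 in 293T.

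**Figure D3:**
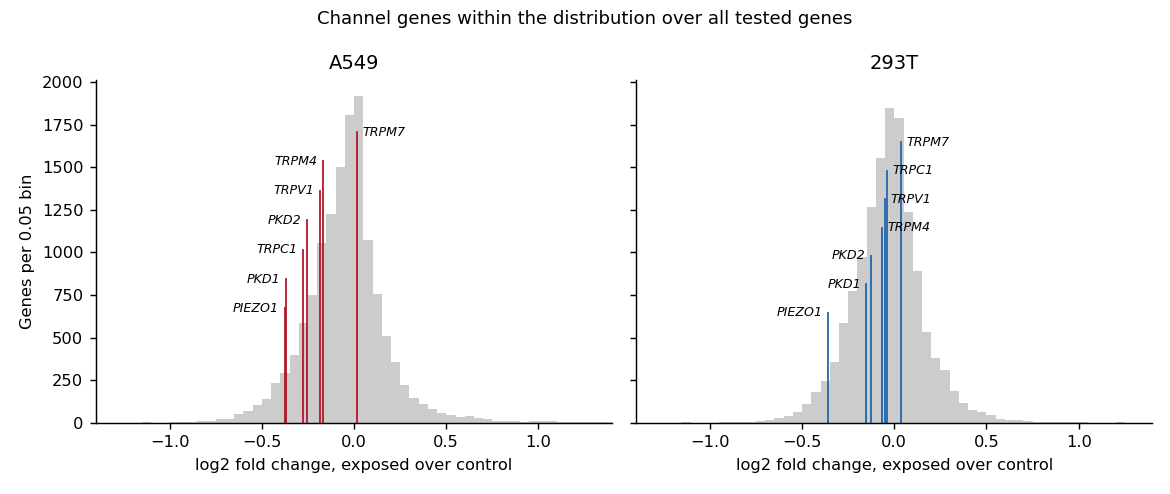
Histogram of log2 fold changes, exposed over control, of all 13811 genes tested (horizontal axis from -1.4 to 1.4, vertical axis genes per bin of 0.05) with vertical lines at the 7 channel genes; line height only separates the names. In A549 the lines run from -0.38 for PIEZO1 to 0.02 for TRPM7, and in 293T all but PIEZO1 lie between -0.15 and 0.04.

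Whether the field effect differed between the lines was tested as A549 minus 293T. All 7 differences were negative in the main fit, with a median of -0.13 beside -0.01 over all genes tested. By limma, 0 of the 7 genes passed, while 12.5% of all genes tested did. Of the 7, 2 had an unadjusted p under 0.05. These were PKD1 (difference -0.22 ± 0.07 on the log2 scale, SE, adjusted p = 0.0666) and TRPC1 (-0.24 ± 0.10, SE, adjusted p = 0.144). The test by limma-voom on recovered counts called 1 gene, PKD1 (-0.28, adjusted p = 0.0432), with unadjusted p under 0.05 for 2 genes. PKD1 also passed without A549 exposed replicate 3 (adjusted p = 0.0434) and without A549 control replicate 2 (0.0390). For PIEZO1 the difference was -0.02, with a 95% interval of -0.17 to 0.13 (adjusted p = 0.888) and a sign that turned in some settings. The larger count of falls in A549 was thus not matched by a difference between the lines past the threshold in the limma test.

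Without the field, the lines differed in the level of most of the channel genes tested. Among A549 controls, 6 of the 7 genes were higher than in 293T controls and none was lower. By the same rule 32.4% of all genes tested were higher and 55.9% were lower. PKD2 averaged 16.4 ± 0.636 FPKM in A549 and 6.12 ± 0.274 FPKM in 293T controls, a ratio of 2.68 (log2 fold change 1.29 ± 0.05, SE, adjusted p = 6.47e-11). PIEZO1 averaged 18.6 ± 0.734 FPKM in A549 and 7.73 ± 0.158 FPKM in 293T controls, a ratio of 2.40 (log2 fold change 1.16 ± 0.05, SE, adjusted p = 7.95e-11). TRPM4 averaged 2.95 ± 0.131 FPKM in A549 and 1.57 ± 0.151 FPKM in 293T controls, a ratio of 1.88 (log2 fold change 0.62, adjusted p = 3.89e-07). The other genes tested differed by at most 0.26 on the log2 scale.

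TRPC1 averaged 2.99 ± 0.364 FPKM in A549 and 2.32 ± 0.140 FPKM in 293T controls (log2 fold change 0.26, adjusted p = 0.00365). PKD1 averaged 4.22 ± 0.261 FPKM in A549 and 3.42 ± 0.163 FPKM in 293T controls (0.24, adjusted p = 5.99e-04). TRPM7 averaged 10.2 ± 0.364 FPKM in A549 and 8.77 ± 0.291 FPKM in 293T controls (0.20, adjusted p = 6.30e-04). TRPV1 did not pass, at 2.22 ± 0.208 FPKM in A549 and 2.36 ± 0.0657 FPKM in 293T controls (-0.06, adjusted p = 0.310). The median of all genes in this comparison was -0.25, and -0.41 after rescaling to TPM, -0.15 after quantile normalization and -0.16 after centring. With TPM the TRPM7 call was lost (0.09, adjusted p = 0.104) and TRPV1 was called lower (-0.19, adjusted p = 0.0306), while the sign of TRPV1 turned with quantile normalization (0.019) and centring (0.031). Without the expression filter, PIEZO2 was higher in A549 controls, at 0.338 ± 0.00567 FPKM, than in 293T controls, at 0.101 ± 0.0305 FPKM (adjusted p = 1.62e-06), and TRPV2 did not pass (adjusted p = 0.0678).

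**Figure D4:**
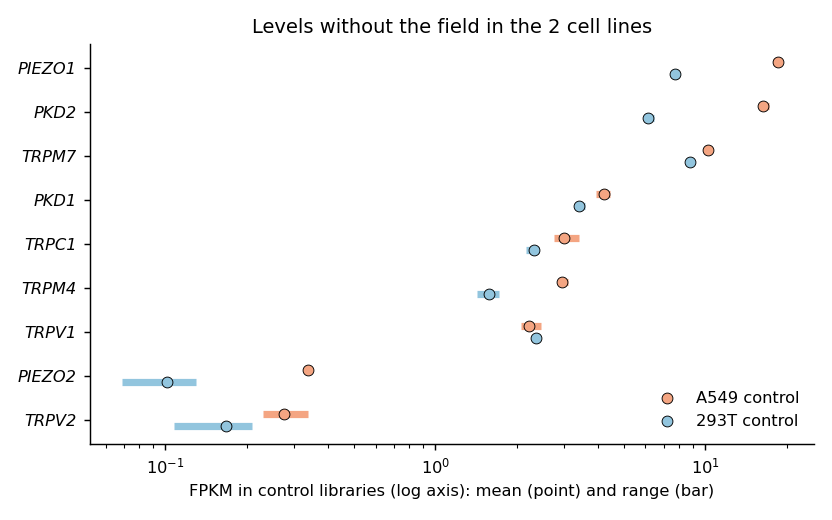
Mean FPKM (points) and range over 3 libraries (bars) of the 9 channel genes in A549 control and 293T control cells, on a log axis. PKD2 and PIEZO1 are farthest apart among the genes tested, at 16.4 and 6.12 FPKM and at 18.6 and 7.73 FPKM in A549 and 293T controls, and TRPV1 nearly coincides.

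The order of levels per length was not the same in the 2 lines. In A549 controls it ran PIEZO1, PKD2, TRPM7, PKD1, TRPC1, TRPM4, TRPV1, PIEZO2 and TRPV2, and libraries overlapped only between TRPC1 and TRPM4 and between PIEZO2 and TRPV2. In 293T controls it ran TRPM7, PIEZO1, PKD2, PKD1, TRPV1, TRPC1, TRPM4, TRPV2 and PIEZO2, with overlap only between TRPV1 and TRPC1 and between TRPV2 and PIEZO2. After exposure, PIEZO1 also overlapped PKD2, in A549 (lowest PIEZO1 13.3 and highest PKD2 14.4 FPKM) and in 293T (5.56 and 5.92 FPKM). Of all genes in the table, 88.6% were below PIEZO1 in A549 controls and 76.7% in 293T controls.

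Other members of the channel families were mostly below the expression filter. Of 24 listed TRP, mucolipin and polycystin genes, 23 were in the table and 8 passed the filter. In A549, 3 fell and none rose, and in 293T, 2 fell and none rose. By the same rule, 26.9% of all genes tested fell and 13.3% rose in A549, and 24.2% fell and 13.7% rose in 293T. TRPM6, the close relative of TRPM7 known for magnesium uptake in kidney and gut, was at 0.527 ± 0.108 FPKM in exposed and 1.05 ± 0.0770 FPKM in control A549 cells (log2 fold change -0.43, adjusted p = 1.18e-04). It was at 0.325 ± 0.0544 FPKM in exposed and 0.575 ± 0.0274 FPKM in control 293T cells (-0.25, adjusted p = 0.00456). MCOLN1, the lysosomal calcium channel mucolipin-1, was at 4.76 ± 0.0984 and 5.41 ± 0.162 FPKM in exposed and control A549 cells (-0.15, adjusted p = 0.0101), and at 7.41 ± 0.133 and 9.39 ± 0.409 FPKM in exposed and control 293T cells (-0.30, adjusted p = 2.16e-04). Its relative MCOLN3 fell in A549 only just past the threshold (-0.13, adjusted p = 0.0468). The median over the 8 genes was -0.04 in both lines, close to that of all genes, -0.04 in A549 and -0.03 in 293T. The A549 count of falls was 1 with quantile normalization, centring or limma-voom.

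Several of these genes were found in a single line. TRPM2 was at 1.10 ± 0.0960 and 1.21 ± 0.0840 FPKM in exposed and control A549 cells, with at most 2 counts in any 293T library. TRPC6 was at 0.426 ± 0.0368 and 0.458 ± 0.0752 FPKM in exposed and control A549 cells. No 293T library had a count of it, which leaves a very low level possible. TRPV4, an osmotically and mechanically gated channel, was at 0.629 ± 0.124 and 0.658 ± 0.137 FPKM in exposed and control 293T cells, with at most 3 counts in any A549 library. The field effect did not pass the test for TRPM2 in A549 (-0.07, adjusted p = 0.253) or TRPV4 in 293T (-0.02, adjusted p = 0.806), and TRPC6 was below the filter.

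**Figure D5:**
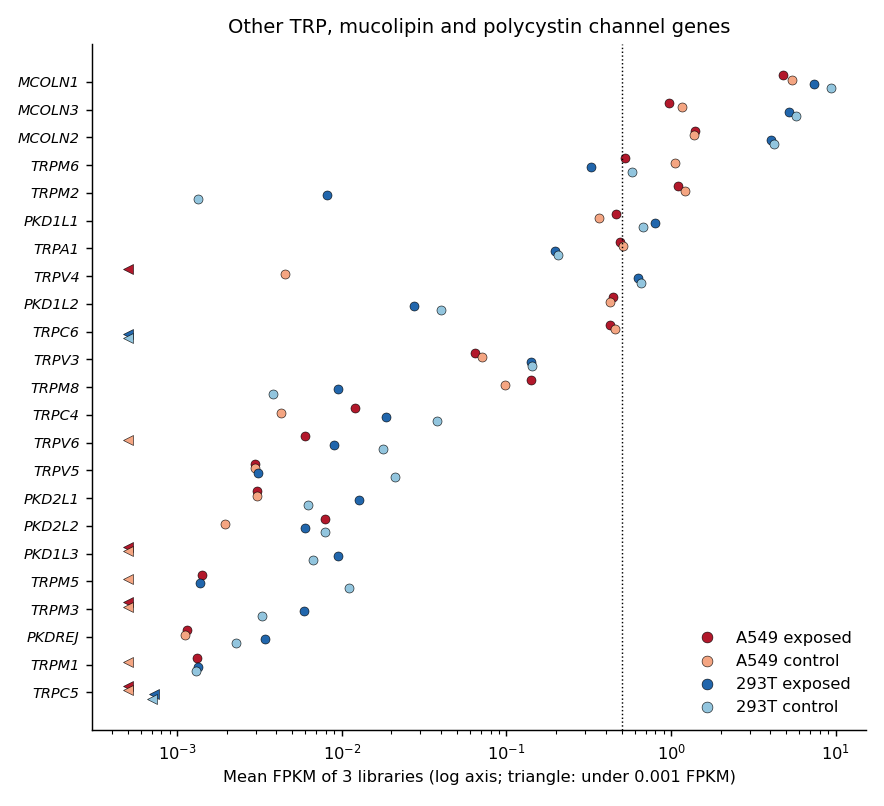
Mean FPKM over 3 libraries (horizontal log axis) of 23 other TRP, mucolipin and polycystin genes in the 4 groups; triangles mark means under 0.001 FPKM and the dotted line marks 0.5 FPKM. MCOLN1 is the most abundant, at 4.76 and 5.41 FPKM in exposed and control A549 cells, and TRPM2, TRPC6 and TRPV4 are each near or at 0 in 1 of the lines.

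Among 19 tested genes for other channels linked to stretch or cell volume, 9 fell and 1 rose in A549. In 293T, 8 fell and 1 rose. By the same rule, 26.9% of all genes tested fell and 13.3% rose in A549, and 24.2% fell and 13.7% rose in 293T. The median log2 fold change over all genes was -0.04 in A549 and -0.03 in 293T. One of the A549 falls was ASIC2, an acid-sensing sodium channel, at 0.410 ± 0.0395 FPKM in exposed and 0.851 ± 0.0755 FPKM in control A549 cells. It reached the expression filter through the A549 control libraries alone, so its exposed libraries had to lie below its controls, and without it 8 of 18 genes fell in A549. The median log2 fold change of those 18 was -0.13 in A549 and -0.12 in 293T. Among them, the smallest adjusted p-values in A549 belonged to LRRC8E, a subunit of the volume-regulated anion channel (-0.50, adjusted p = 2.92e-04), and to SCNN1A, the alpha subunit of the epithelial sodium channel (12.1 ± 1.18 FPKM exposed and 15.4 ± 0.445 FPKM control, -0.32, adjusted p = 8.66e-04). In 293T they belonged to TMEM63C, a relative of plant osmosensitive channels (-0.41, adjusted p = 2.48e-04), LRRC8E (-0.39, adjusted p = 0.00185) and ASIC1 (-0.46, adjusted p = 0.00244). The genes that rose were other LRRC8 subunits, LRRC8A in A549 (0.17, adjusted p = 0.0123) and LRRC8C in 293T (0.20, adjusted p = 0.00978). With ASIC2 included, the count of falls in A549 was 5 without A549 exposed replicate 1, without A549 exposed replicate 2 or without A549 control replicate 3, and 5 with quantile normalization, centring or no filter.

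Genes listed as partners of Piezo and TRP channels, with magnesium transport genes among them, moved in both directions. Of 20 tested, 3 rose and 5 fell in A549, and 4 rose and 2 fell in 293T. Their median log2 fold change was -0.05 in A549 and 0.01 in 293T, beside -0.04 and -0.03 over all genes. By the same rule, 13.3% of all genes tested rose and 26.9% fell in A549, and 13.7% rose and 24.2% fell in 293T. FKBP4, an HSP90 co-chaperone, rose in A549, at 126 ± 22.7 FPKM in exposed and 57.7 ± 0.831 FPKM in control cells (log2 fold change 1.10, adjusted p = 6.03e-06), and in 293T, at 93.9 ± 6.23 FPKM in exposed and 72.8 ± 1.59 FPKM in control cells (0.36, adjusted p = 0.00969). The magnesium transporter gene MAGT1 also rose in both lines (0.23 in A549 and 0.16 in 293T). ATP2A2, the endoplasmic reticulum calcium pump SERCA2, which binds PIEZO1, rose in 293T (0.27, adjusted p = 3.58e-04), as did CNNM4 (0.19), and CNNM3 rose in A549 (0.14). PTP4A3, a phosphatase that binds CNNM proteins, fell in A549 (-0.58, adjusted p = 1.32e-04) and in 293T (-0.26, adjusted p = 0.0191), and CNNM1 fell by 0.26 and 0.28 on the log2 scale. ORAI1, the store-operated calcium channel (-0.36, adjusted p = 0.00328), HOMER1 (-0.20) and PTP4A2 (-0.13) fell in A549. The 293T count of rises was 2 without 293T exposed replicate 1 or 2, or without 293T control replicate 1 or 2.

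Genes of polycystin maturation and cystic disease likewise divided. Of 16 tested, 3 rose and 6 fell in A549, and 2 rose and 4 fell in 293T. Their median log2 fold change was -0.07 in A549 and 0.02 in 293T, beside -0.04 and -0.03 over all genes. Over all genes tested, 13.3% rose and 26.9% fell in A549, and 13.7% rose and 24.2% fell in 293T. DNAJB11, an endoplasmic reticulum co-chaperone needed for PKD1 maturation, rose in A549, at 79.4 ± 11.6 FPKM in exposed and 46.2 ± 2.96 FPKM in control cells (0.76, adjusted p = 4.80e-05), and in 293T, at 74.0 ± 5.10 FPKM in exposed and 52.1 ± 2.82 FPKM in control cells (0.50, adjusted p = 0.00106). The other rises were ALG8 (0.14) and HAX1 (0.12) in A549 and SEC61B (0.14, adjusted p = 0.0361) in 293T. The 293T count of rises was 1 without 293T exposed replicate 1 or 2, without 293T control replicate 1 or 2, and in 4 of the other settings. NEK8, a ciliary kinase, fell in A549 (-0.39, adjusted p = 3.51e-04) and 293T (-0.34, adjusted p = 0.00111), as did the sorting adaptor PACS1 (-0.32 and -0.25). PACS2, which sorts PKD2 between compartments, also fell in A549 (-0.28, adjusted p = 0.00208) and 293T (-0.35, adjusted p = 6.96e-04), and so did PRKCSH, the beta subunit of glucosidase II (-0.12 and -0.14).

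Of 14 genes known to respond to calcium entry or stretch, 6 rose and 2 fell in A549, and 5 rose and 1 fell in 293T. Their median log2 fold change was 0.44 in A549 and 0.12 in 293T, beside -0.04 and -0.03 over all genes. Over all genes tested, 13.3% rose and 26.9% fell in A549, and 13.7% rose and 24.2% fell in 293T. Several of the 14 were already known to have risen in these libraries when they were listed, so their direction is not independent evidence. In A549 the smallest adjusted p-values belonged to the phosphatase gene DUSP1 (1.29, adjusted p = 2.91e-06), THBS1 (1.02, adjusted p = 3.62e-06) and the matricellular gene CCN1 (2.02, adjusted p = 5.38e-06). In 293T they belonged to DUSP1 (1.24, adjusted p = 1.28e-05), ATF3 (1.50, adjusted p = 4.91e-05) and KLF2 (0.86, adjusted p = 6.86e-04), and CCN1 (0.48) and ANKRD1 (0.67) rose as well. NFATC1, a transcription factor activated by calcineurin, fell in both lines (-0.29 in A549 and -0.28 in 293T), and KLF4 fell in A549 (-0.43). RCAN1, a calcineurin target, did not pass in A549 (0.17, adjusted p = 0.0811) or 293T (0.13, adjusted p = 0.189). The 293T count of rises was 3 without 293T exposed replicate 1 or 2, without 293T control replicate 1 or 2, with no filter and with limma-voom.

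Correlations among the channel genes were taken after the mean of each line was subtracted. The exposed-control differences given above remain in these values, so the correlations are not separate evidence. The Pearson correlation of log2(FPKM + 1) over the 12 libraries was highest between PIEZO1 and PKD1, at 0.92. It was 0.86 between PIEZO1 and PKD2 and 0.86 between PKD1 and PKD2. Among the 6 genes other than TRPM7 the lowest was 0.58, between TRPC1 and TRPM4. For TRPM7 with the 6 others the correlation ran from -0.22 to 0.16. The libraries share their exposure, depth and preparation, so these values describe the pattern across them and carry no p. Among 11067 candidate genes, the closest to PIEZO1 was AGRN, which encodes the basement membrane proteoglycan agrin (0.99), followed by LENG8 and PRR12 (both 0.99). For PKD1 they were the kinase gene CAMKK1, RAI1 and KLHDC8B (all 0.98), and for PKD2 HIF1A, the oxygen-regulated transcription factor (0.99), ZNF280D and DHDDS (both 0.98). TRPV1 was closest to PXYLP1 (0.96), SRSF8 (0.94) and SOX21 (0.93), TRPC1 to MICAL1 (0.93), TDRP (0.93) and TMEM165 (0.92), and TRPM4 to COX18 (0.94), MED4 (0.93) and XRCC3 (0.93). TRPM7 had the loosest matches, CCAR1 (0.89), CEP78 (0.85) and NEMF (0.84).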

How the data were processed

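Poly(A)-selected RNA of 12 libraries was sequenced as paired ends from random-primed cDNA, per the labels' protocols. The submitters' processing notes name fastp, HISAT2, HTSeq and GRCh38, without versions. The authors deposited FPKM, in which fragments per gene are scaled to transcript length and library total. Every FPKM value could be returned to whole counts (100% of genes, tolerance 0.01 counts), and no 2 libraries held identical values. The smallest whole numbers that kept the ratios between libraries were taken. A gene seen in a single library always passes this check, and counts of such sparse genes may be too low by a common factor.

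Genes with at least 0.5 FPKM in at least 3 libraries were kept (13811 of 26348). Values of log2(FPKM + 1) entered a linear model in limma 3.58.1 under R 4.3.3, with group means, an intensity trend and 8 residual degrees of freedom. Tests were two-sided with Benjamini-Hochberg adjustment over all genes tested, and every adjusted p comes from this fit unless another setting is named. A fold change on this scale understates the change of low genes, and percent changes are of mean FPKM. The script was tested on simulated data.

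The genes and lists were chosen with earlier results of these data known. Genes named besides the 9 channels were, per list and line, the 3 with the smallest adjusted p past the threshold and every gene of a count of 5 or fewer, and for likeness the 3 highest correlations among genes of at least 1 FPKM; TRPM2, TRPC6, TRPV4 and RCAN1, and neighbouring genes, were named after their values were seen. A further listed channel gene is not reported here. Names and coordinates came from RefSeq (GRCh38.p14), matched to 25419 identifiers, with pandas 2.3.3 under Python 3.11.15. Alternatives covered pseudocount, filter, scaling, variance trend, lines fitted alone, a replicate block, limma-voom and leaving out each library. Recovered counts of 37171616 to 38883963 per library limit low genes most, and counting error is the only part that depth describes.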

Additional observations from a re-analysis of the deposited data

How the results depend on the processing

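PIEZO1 in both lines, and PKD1, PKD2 and TRPC1 in A549, kept their fall and their side of the threshold under all alternatives run. The number of channel genes that fell in A549 was 4 to 6 over the 11 other settings and 4 to 6 with single libraries left out. In 293T it was 1 with no filter, with quantile normalization and with centring, and 1 to 2 with single libraries left out. The number called for the difference between the lines was 1 with limma-voom and 0 to 1 with single libraries left out. For A549 against 293T controls, counted in either direction, it was 6 to 7 over the other settings and 6 with single libraries left out. With TPM, TRPV1 was called lower in that comparison and TRPM7 was not called. No channel gene rose in either line under any alternative. The difference for PIEZO1 turned sign with a pseudocount of 0.1 (0.0069), centring (0.0083) and limma-voom (0.011), and ran from -0.070 to 0.018 with single libraries left out. TRPC1 in 293T turned with quantile normalization (0.0078) and ran from -0.085 to 0.0066 with libraries left out. TRPM7 in A549 turned without the mitochondrial genes (-0.021) and ran from -0.022 to 0.040, and its difference between lines turned with centring (0.0075) and ran from -0.058 to 0.0041. TRPV1 between the controls turned with quantile normalization (0.019) and centring (0.031). None of these reversed values passed the test, and the cause was not tested. Replicate numbers are column labels only: deviations of same-numbered exposed and control libraries correlated at -0.14 to -0.043 in A549 and -0.095 to 0.00014 in 293T, and no pairing is shown. With the replicate number as a block, 5 channel genes fell in A549, 2 fell in 293T, 0 differed between the lines and 6 between the controls. The call that changed among the channel genes was TRPM4 in A549 (adjusted p = 0.0977). Depth limits PIEZO2 and TRPV2, with 29 to 146 and 9 to 44 counts per library.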
